A study of Mus musculus with 10 samples.

Results

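Messenger RNA of mouse macrophages that had been given the protein AmTARS for 3 h was compared with that of untreated macrophages. Akkermansia muciniphila is a bacterium of the gut, AmTARS is its threonyl-tRNA synthetase (the enzyme that joins threonine to its tRNA), and the series title names the protein as a ligand of Toll-like receptor TLR2. The comparison used 4 of the 10 libraries of the series: AmTARS 3 h replicates 1 and 3, and control replicates 2 and 3. It covered the 11407 of 11617 listed genes whose level averaged at least 1 CPM (the read count scaled to the authors' size of each library) over the 10 libraries. Wherever 2 values are given for a group below, they are these libraries in this order.

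Every group held macrophages that were derived from C57BL/6 bone marrow in culture with GM-CSF at 50 ng/ml and 10% FBS. The labels give the age of the mice as 6 weeks in one place and 7 weeks in another. The AmTARS groups received a dose written as 0.5 with the unit mm, for 1 h or 3 h; the control group has no treatment and no time label, so there is no untreated sample known to be matched to 3 h. The AmTARS 1 h group (replicates 2 and 3) and the Pam3CSK4 3 h group (10 ng/ml, replicates 2 and 3) are used below only beside the AmTARS 3 h values. Pam3CSK4 is a synthetic lipopeptide that acts on TLR2 together with TLR1, and because the unit of the AmTARS dose is unclear, the doses of both ligands cannot be matched. With n = 2 per group and no label that ties a library to its own animal or dish, the p-values measure only the spread between these samples, which may be technical.

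Toll-like receptors are sensors of microbial molecules. TLR2, paired with TLR1 or TLR6, binds bacterial lipoproteins and signals through the adaptor MyD88 and the kinases IRAK1 and IRAK4 to the transcription factor NF-kB, which turns on genes of cytokines and chemokines as well as genes that brake the same pathway. In macrophages the early response is followed by changes of metabolism, among them in itaconate, in defence against oxidants and in cholesterol synthesis, which is governed by the transcription factor SREBP2.

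The listed genes held 37559810 and 37373107 reads in the AmTARS 3 h libraries and 33600803 and 34415950 in the controls. All 18 macrophage markers were listed, and their summed level was 55075 and 56696 CPM in the controls and 60313 and 57241 CPM after AmTARS. Neutrophil markers were present too, 14 of 15 of them, with a sum of 2494 and 2563 CPM in the controls and 3037 and 2939 CPM after AmTARS; Ly6g, a defining neutrophil gene, was not among the listed genes. Of 13 dendritic cell markers 6 were listed, with sums of 83.6 and 82.4 CPM in the controls and 71.9 and 73.0 CPM after AmTARS; the defining genes Flt3 and Zbtb46 were not among the listed genes. Of 18 lymphocyte markers 3 were listed, with 16.3 and 15.5 CPM in the controls and 14.1 and 14.3 CPM after AmTARS. Mast cell, basophil and eosinophil markers, 8 of 12, summed to 52.8 and 48.6 CPM in the controls and 63.3 and 55.2 CPM after AmTARS. Fibroblast, endothelial and erythroid markers, 8 of 16, summed to 1654 and 1569 CPM in the controls and 1429 and 1516 CPM after AmTARS, and no globin gene was among those listed. In every one of these sums the AmTARS libraries lay on one side of the controls, as in 71.3% of all genes tested. They were higher for macrophage, neutrophil, and mast cell, basophil and eosinophil markers. They were lower for dendritic cell, lymphocyte, and fibroblast, endothelial and erythroid markers. The part of other cells in the results was not tested, and in bulk RNA a change in the share of a cell type and a change in RNA per cell cannot be told apart.

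After 3 h of AmTARS the largest rises were of genes for chemokines and cytokines, of a pair of cytoskeletal regulators, of the secreted signal Wnt6, of the fatty acid receptor Gpr84 and of metallothioneins, while the largest falls were of single genes with mixed roles. In limma, 2147 genes were higher and 2039 lower than in untreated cells at an adjusted p below 0.05, which is 18.8% and 17.9% of the 11407 tested, 36.7% in all. Most of these differences were small: the median size among the called genes was 0.27 on the log2(CPM + 1) scale, 51 genes rose and 73 fell by 1.5-fold or more, and 5 rose and 2 fell by 2-fold or more. The counts shrink with fewer libraries, to 1997 called genes without AmTARS replicate 1 and to 2313 without control replicate 2. With the libraries scaled by plain read totals, 1320 genes were called higher and 2893 lower, and the median gene lay 0.06 below control on the log2 scale.

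The differences from control followed transcript length across the whole set of genes. Genes were split into 5 equal parts by length; the median log2 difference was 0.196 in the part with the shortest transcripts (median 1289 nucleotides) and -0.2067 in that with the longest (6617 nucleotides). Spearman's rho between length and log2 difference was -0.672 across genes, and genes do not count as replicates of one another. The same measure between replicates was 0.355 for AmTARS 3 h and -0.227 for the controls. Because the same trend touches nearly every gene, the lists below are also counted after each library was corrected for length and GC content; rho was then -0.02. A gene described as changed was called both as deposited and as corrected unless the text says otherwise, and its values are as deposited. The corrected values had 1232 genes higher (10.8%) and 864 lower (7.6%), and 814 rises (7.16%) and 676 falls (5.95%) were called both ways. Every list count against control below stands beside these background shares, 10.8% and 7.6% as corrected, and 18.8% and 17.9% as deposited. The corrected total of 2096 dropped to 948 without AmTARS replicate 1, 1379 without AmTARS replicate 3, 879 without control replicate 2 and 1330 without control replicate 3. Whether the length trend comes from the cells or from the libraries was not tested.

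**Figure D1:**
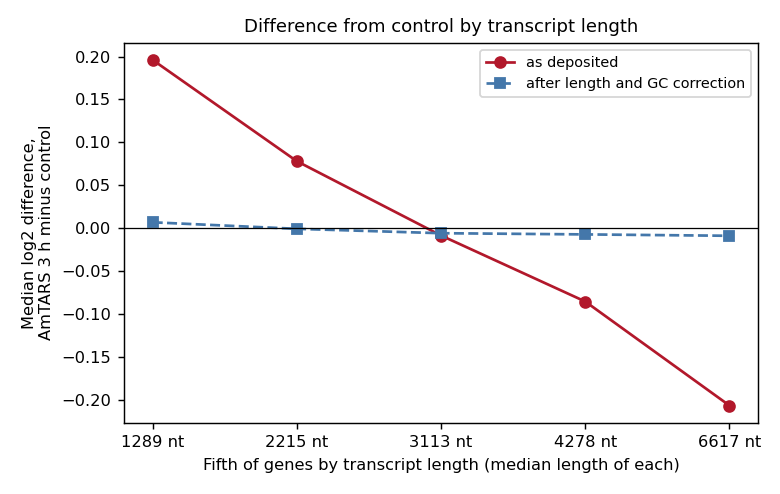
Median log2 difference between AmTARS 3 h and control (vertical axis, log2(CPM + 1)) in 5 equal parts of the genes by transcript length (horizontal axis, median length of each part in nucleotides). As deposited, the medians run from 0.196 in the shortest part to -0.2067 in the longest; after the length and GC correction they lie close to 0.

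**Figure D2:**
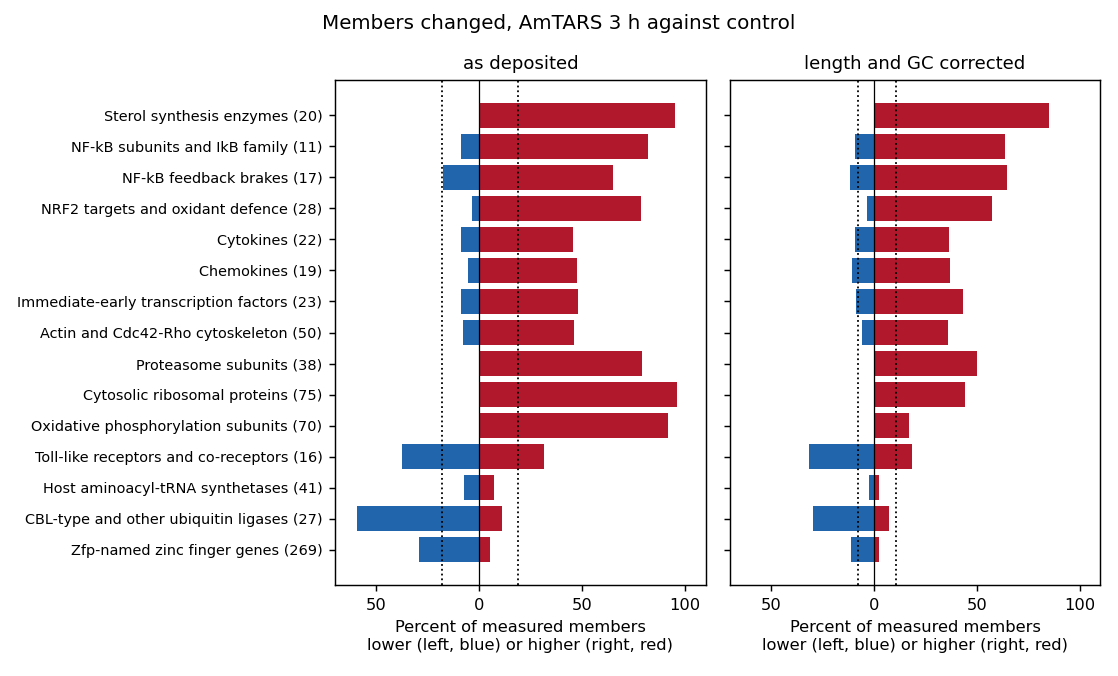
Percent of the measured members of 15 gene lists (number of members in brackets) that were higher (red, to the right) or lower (blue, to the left) after AmTARS for 3 h than in controls, as deposited on the left and after the length and GC correction on the right. Dotted lines mark the percentages over all genes tested, 18.8 higher and 17.9 lower as deposited and 10.8 and 7.6 after the correction; ribosomal proteins and oxidative phosphorylation subunits lose the most red between the panels.

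**Figure D3:**
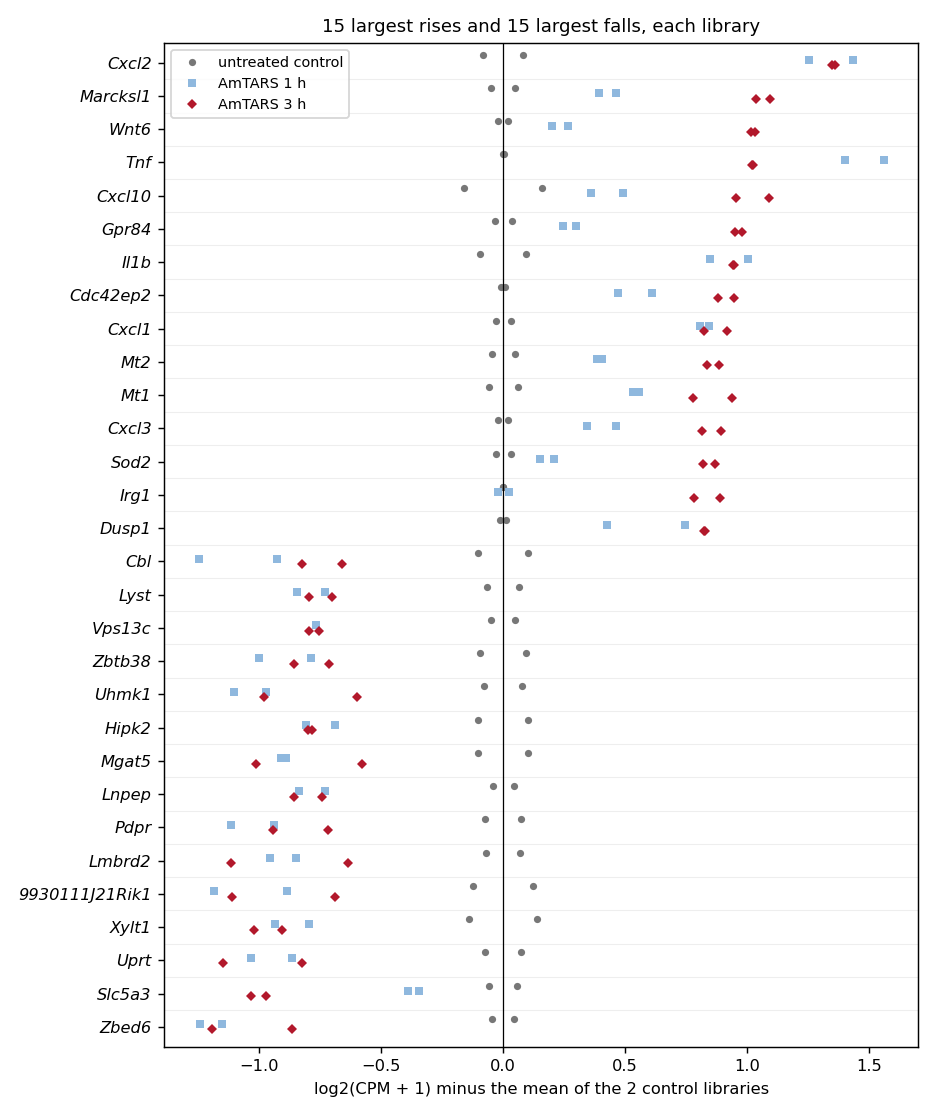
Level of the 15 genes with the largest rises and the 15 with the largest falls in each library, as log2(CPM + 1) minus the mean of the 2 control libraries (horizontal axis), for control, AmTARS 1 h and AmTARS 3 h. These genes were chosen for their difference from control at 3 h, and the AmTARS 1 h points show which of them already lay as far from control at 1 h, such as Cxcl2 and Zbed6, and which did not, such as Irg1 and Slc5a3.

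TLR2 and its co-receptor CD14 gained transcript after AmTARS, whereas 4 other Toll-like receptors and Cd180 lost it. Tlr2 (chromosome 3, 83836272 to 83841767, build mm10) stood at 245 and 249 CPM in the controls and at 364 and 365 CPM after AmTARS, a log2 difference of 0.56 (SE 0.06, adjusted p = 1.53e-06), and it was 0.57 (adjusted p = 6.99e-08) after the correction. Cd14, whose product hands lipoproteins and lipopolysaccharide to the receptors, went from 626 and 617 to 1049 and 1045 CPM, a difference of 0.75 (SE 0.07, adjusted p = 6.55e-07). For both genes the AmTARS libraries lay close together and well above the controls. Tlr1, the partner of TLR2 for triacylated ligands, had 29.2 and 29.3 CPM in controls and 31.8 and 35.1 after AmTARS, with a small difference of 0.19 (SE 0.07, adjusted p = 0.048) whose call was lost without any 1 of the 4 libraries (largest adjusted p = 0.328). Tlr6, the partner for diacylated ligands, had 19.5 and 17.2 CPM in controls and 16.4 and 16.2 CPM after AmTARS and did not pass (-0.16, SE 0.08, adjusted p = 0.109). Both AmTARS values of Tlr6 lay below the controls, and 71.3% of all genes tested had no overlap between the groups in either direction.

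The receptors that fell include the lipopolysaccharide receptor and 3 sensors of nucleic acids in endosomes. Tlr8 fell most, from 156 and 153 to 91.5 and 96.4 CPM, by 0.71 (SE 0.06, adjusted p = 3.85e-07) on the log2 scale. Tlr4, which senses lipopolysaccharide, went from 92.9 and 88.9 to 57.7 and 62.2 CPM (-0.59, SE 0.07, adjusted p = 5.43e-06). Tlr7, a sensor of single-stranded RNA, went from 243 and 249 to 175 and 175 CPM (-0.49, SE 0.05, adjusted p = 3.95e-06). The groups did not overlap for any of these, which is also true of 71.3% of all genes tested. Tlr9, the sensor of unmethylated DNA, fell from 27.02 and 23.7 to 17.2 and 19.9 CPM (-0.43, SE 0.10, adjusted p = 0.00212), a call lost without AmTARS replicate 1 and without control replicate 2 (largest adjusted p = 0.0527). Cd180, a TLR4-like surface protein, fell from 184 and 178 to 139 and 143 CPM (-0.36, SE 0.06, adjusted p = 9.88e-05). After the correction these 5 falls were still called, at -0.65, -0.48, -0.40, -0.45 and -0.36 in the same order. Of the 16 receptors and co-receptors measured, 5 rose and 6 fell, and 3 and 5 after the correction; the count of rises was 3 without AmTARS replicate 1 and also without control replicate 2, and the count of falls ranged from 4 to 7 when 1 library was left out. Ly86, Unc93b1 and Tlr13 were called only as deposited, while Cd36, Lbp, Ly96 and Tlr3 did not pass in either set of values. The call of Ly86 was lost without AmTARS replicate 1 and without control replicate 2 (largest adjusted p = 0.161), that of Tlr13 without control replicate 2 (0.0512 in adjusted p), and Tlr3 was called lower without AmTARS replicate 3 (adjusted p = 0.0383).

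**Figure D4:**
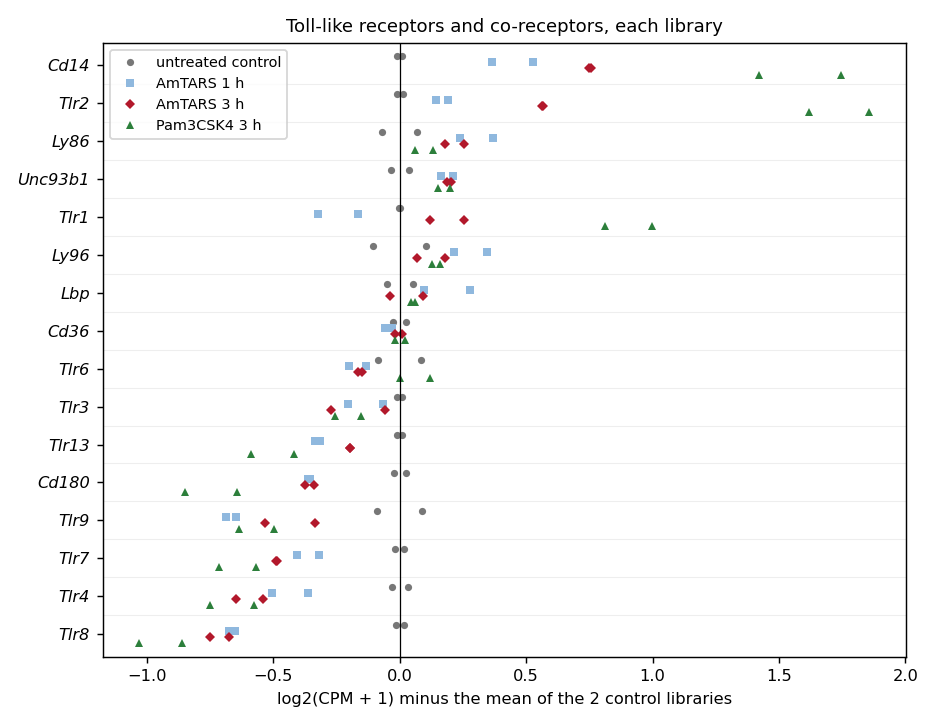
Level of 16 Toll-like receptors and co-receptors in each library, as log2(CPM + 1) minus the mean of the 2 control libraries (horizontal axis), for control, AmTARS 1 h, AmTARS 3 h and Pam3CSK4 3 h. Cd14 and Tlr2 lie to the right of control after AmTARS 3 h and further right after Pam3CSK4 3 h, and Tlr9, Tlr7, Tlr4 and Tlr8 lie to the left under each ligand.

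The signalling chain between receptor and NF-kB moved little. Of 20 MyD88 pathway components 4 rose and 2 fell, near or below the background shares, and after the correction 2 rose and 1 fell; no rise was called without AmTARS replicate 1 or without control replicate 3, and no fall without AmTARS replicate 1. Myd88 itself had 96.3 and 93.7 CPM in controls and 104 and 108 after AmTARS (0.15, SE 0.05, adjusted p = 0.0303; after the correction 0.04, adjusted p = 0.556), a call lost without any 1 library. Tirap, which bridges TLR2 and TLR4 to MyD88, fell from 19.96 and 19.4 to 14.5 and 16.1 CPM (-0.35, SE 0.08, adjusted p = 0.00215), a call lost without AmTARS replicate 1 (adjusted p = 0.0511). Irak1 (122 and 116 against 108 and 114 CPM), Irak4, Traf6, Map3k7, Chuk and Ikbkb did not pass.

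Genes of NF-kB itself and of its inhibitors rose as a group. Of 11 measured NF-kB subunits and IkB family members 9 rose and 1 fell, with a median log2 difference of 0.412 against 0.001 over all genes; 7 rose and 1 fell after the correction, and 9 rises were called with any 1 library left out. The largest rise was that of Nfkbie, the gene of IkB epsilon, from 40.8 and 39.6 to 69.2 and 71.2 CPM (0.79, SE 0.06, adjusted p = 7.03e-08). Relb and Nfkb2 encode the partners of the noncanonical NF-kB dimer. Relb rose from 39.5 and 37.9 to 60.7 and 63.9 CPM (0.67, SE 0.06, adjusted p = 2.23e-07). Nfkb2 went from 88.4 and 81.7 to 131 and 129.6 CPM (0.61, SE 0.06, adjusted p = 1.55e-06). Nfkbia, the gene of IkB alpha that restrains NF-kB soon after activation, rose from 118 and 119.7 to 188 and 177 CPM (0.61, SE 0.05, adjusted p = 3.85e-07). Nfkbiz, a nuclear coactivator needed for secondary targets, went from 21.3 and 20.4 to 30.01 and 31.99 CPM (0.55, SE 0.06, adjusted p = 9.06e-06). Rela, at 114 and 111 CPM in controls and 129 and 133 CPM after AmTARS, rose by 0.22 and Bcl3 by 0.30, and neither was called after the correction. Both AmTARS libraries lay above both controls for each of these genes, while the groups did not overlap, in either direction, in 71.3% of all genes tested. The other 2 classic subunits differed from these: Nfkb1 had 117 and 118 CPM in controls and 124 and 129.9 CPM after AmTARS and did not pass (0.11, SE 0.07, adjusted p = 0.198). Rel fell from 9.54 and 8.99 to 5.64 and 6.58 CPM (-0.53, SE 0.09, adjusted p = 0.000273; -0.29 after the correction).

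Feedback brakes of the pathway rose in 11 of 17 cases as deposited and in 11 as corrected, 10 of them in both, and 3 fell (2 after the correction; 1 without control replicate 2). Tnip3, which binds the ubiquitin-editing protein A20, rose from 33.4 and 33.4 to 59.4 and 51.6 CPM (0.71, SE 0.06, adjusted p = 3.85e-07). Irak3, the kinase-dead IRAK that blocks signalling at MyD88, went from 79.5 and 74.6 to 106 and 111 CPM (0.49, SE 0.07, adjusted p = 3.36e-05). Zc3h12a, the RNase Regnase-1 that degrades cytokine messages, went from 63.5 and 61.7 to 87.2 and 87.8 CPM (0.48, SE 0.06, adjusted p = 1.82e-05). All 3 had AmTARS values well apart from the controls. Tnfaip3, the gene of A20, had 49.2 and 47.2 CPM in controls and 59.2 and 60.04 CPM after AmTARS (0.30, SE 0.06, adjusted p = 0.000548). Zfp36, which removes Tnf message, rose from 108 and 104 to 131 and 135 CPM (0.32, SE 0.05, adjusted p = 4.73e-05). Its relative Zfp36l1 fell from 167 and 162 to 137 and 139.9 CPM (-0.25, SE 0.05, adjusted p = 0.000656). Socs1 and Socs3, inhibitors of cytokine receptor signalling, rose by 0.43 and 0.35.

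Cytokine genes rose in part. Of 31 on the list 22 were measured; 10 rose and 2 fell, with a median difference of 0.278, and 8 rose and 2 fell after the correction; 1 fall was called without AmTARS replicate 3 and also without control replicate 2. Tnf had 23.7 and 23.6 CPM in the controls and 49.0 and 49.1 CPM after AmTARS (1.02, SE 0.07, adjusted p = 2.56e-08). Il1b had 21.5 and 24.6 CPM in controls and 45.2 and 45.1 CPM after AmTARS (0.94, SE 0.13, adjusted p = 2.64e-05). In both genes the AmTARS libraries lay very close together and stood at about 2 times the control level. Among the other rises, Tnfsf9, the gene of the co-stimulatory ligand 4-1BBL, went from 5.28 and 4.94 to 7.58 and 8.75 CPM (0.58, SE 0.09, adjusted p = 8.55e-05). Gdf15, a stress-induced member of the TGF-beta family, went from 11.1 and 12.1 to 17.6 and 17.9 CPM (0.57, SE 0.08, adjusted p = 3.67e-05). Il1a rose from 6.997 and 7.54 to 9.95 and 10.01 CPM (0.41, SE 0.11, adjusted p = 0.00637), a call lost without control replicate 2 (adjusted p = 0.0668).

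Several cytokines often used to describe macrophage activation did not pass. Il6 had 1.66 and 1.95 CPM in controls and 2.97 and 2.52 CPM after AmTARS (0.41, SE 0.17, adjusted p = 0.065), and Il12b had 1.26 and 2.37 CPM in controls and 1.48 and 1.63 CPM after AmTARS (-0.11, SE 0.17, adjusted p = 0.639). Il6 was called in 2 of the 22 settings tried. Il10 was listed but averaged under 1 CPM and was not tested. Inhba, which encodes the activin A subunit, was the largest fall among cytokines, from 26.6 and 22.7 to 12.7 and 16.1 CPM (-0.74, SE 0.11, adjusted p = 6.20e-05; -0.52 after the correction).

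The largest rises among chemokine genes were those of 3 neutrophil attractants and of Cxcl10. Of 19 measured chemokines 9 rose and 1 fell, and 7 rose and 2 fell after the correction. Cxcl1, Cxcl2 and Cxcl3, which attract neutrophils and lie within one cluster on chromosome 5, and the interferon-inducible Cxcl10 rose most. Cxcl2 had 16.7 and 18.8 CPM in controls and 47.1 and 46.7 CPM after AmTARS (1.36, SE 0.11, adjusted p = 1.08e-07). Cxcl1 had 12.6 and 12.01 CPM in controls and 22.5 and 24.1 CPM after AmTARS (0.87, SE 0.11, adjusted p = 1.56e-05). Cxcl3 had 23.6 and 24.3 CPM in controls and 45.3 and 42.9 CPM after AmTARS (0.85, SE 0.11, adjusted p = 1.60e-05). These 3 genes are similar in sequence, and how reads shared between them were counted is not given in the sources used here. Cxcl10 had 4.798 and 6.23 CPM in controls and 11.5 and 12.8 CPM after AmTARS (1.02, SE 0.14, adjusted p = 3.83e-05), with a wide gap between its controls for so low a level. Cxcl16, which is also a membrane scavenger receptor, rose from 441 and 458 to 578 and 577 CPM (0.36, SE 0.05, adjusted p = 2.45e-05). Pf4 went from 407 and 447 to 644 and 562 CPM (0.50, SE 0.07, adjusted p = 3.13e-05). The attractants of monocytes Ccl2 (21.3 and 22.7 against 25.6 and 24.1 CPM, 0.17, SE 0.09, adjusted p = 0.141) and Ccl7 and Ccl3 (29.2 and 30.9 against 34.8 and 33.03 CPM, 0.17, SE 0.11, adjusted p = 0.244) did not pass. Ccl22 was the fall, at -0.21, and its call was lost without any 1 of the 4 libraries (largest adjusted p = 0.173). Transcripts of 3 neutrophil genes, S100a8, S100a9 and Camp, moved in the same libraries by 0.47, 0.43 and 0.50 (0.21, 0.18 and 0.23 after the correction). Of the 14 neutrophil markers measured, 7 rose, 1 fell and 6 did not pass as deposited, and 5 rose and 1 fell after the correction. Over all genes 18.8% were higher and 17.9% lower as deposited, and 10.8% and 7.6% after the correction. The part of the neutrophil genes in the chemokine result was not tested.

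The promoters of Cxcl1, Cxcl2 and Cxcl3 are shown because they share a form of the NF-kB binding site. Cxcl10, which also rose, has a promoter entry without this form. The 250 bases before the transcription start were read from RefSeq promoters of build GRCm38.p6, which had entries for 8808 of the genes tested. On both strands 11 motif forms were searched after the results were known, of which 3 are reported in full. The kappaB form GGGA, then any base, then TTTCC lay in 46 of the 8808 promoters (0.522%), in 3 of the 13 chemokine promoters and in 2 of the 8 of the NF-kB family, Nfkb2 and Nfkbia. Of the 15 genes with the largest rises 14 had a promoter entry, and the 3 with the form were the same chemokines; none of the 13 among the largest falls had it. The site begins 71 bases before the start in Cxcl1 (chr5:90890995-90891244, plus strand), 97 in Cxcl2 (chr5:90903649-90903898, plus strand), 73 in Cxcl3 (chr5:90785851-90786100, plus strand) and 29 in Nfkbia (chr12:55492648-55492897, minus strand), where it reads on the opposite strand to the gene. Sequences run 5′ to 3′ along the gene, with the motif in capitals. A match is a description of the letters and not evidence that the factor binds there.
Cxcl1: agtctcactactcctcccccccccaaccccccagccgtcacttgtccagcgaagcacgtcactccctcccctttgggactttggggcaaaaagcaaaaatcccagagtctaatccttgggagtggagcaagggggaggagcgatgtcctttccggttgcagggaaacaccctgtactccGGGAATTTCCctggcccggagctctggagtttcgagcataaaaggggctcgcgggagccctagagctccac
Cxcl2: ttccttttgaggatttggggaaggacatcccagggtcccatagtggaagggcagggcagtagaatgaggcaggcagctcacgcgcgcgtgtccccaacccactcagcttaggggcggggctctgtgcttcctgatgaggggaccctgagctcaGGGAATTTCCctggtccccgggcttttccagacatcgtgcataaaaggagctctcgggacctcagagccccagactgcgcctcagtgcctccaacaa
Cxcl3: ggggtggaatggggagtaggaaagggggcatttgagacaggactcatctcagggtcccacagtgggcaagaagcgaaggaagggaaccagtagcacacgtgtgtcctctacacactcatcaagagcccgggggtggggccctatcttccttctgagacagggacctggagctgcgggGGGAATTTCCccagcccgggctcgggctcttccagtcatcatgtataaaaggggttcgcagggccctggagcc
Nfkbia: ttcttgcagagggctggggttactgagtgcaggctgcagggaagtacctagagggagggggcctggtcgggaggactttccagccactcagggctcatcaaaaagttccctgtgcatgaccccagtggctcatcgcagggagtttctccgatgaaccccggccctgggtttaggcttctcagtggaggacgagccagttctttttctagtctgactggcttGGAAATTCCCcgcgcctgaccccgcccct

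Immediate-early transcription factors rose in 11 of 23 cases and fell in 2, and in 10 and 2 cases after the correction, but the rises numbered 7 without AmTARS replicate 1, 6 without AmTARS replicate 3 and 7 without either control, and the falls ranged from 0 to 2. Nr4a1, an orphan nuclear receptor, rose from 11.5 and 13.1 to 21.4 and 18.8 CPM (0.67, SE 0.10, adjusted p = 9.97e-05). Junb and Fos encode partners in the AP-1 dimer. Junb rose from 181 and 171 to 261 and 256 CPM (0.55, SE 0.06, adjusted p = 6.24e-06) and Fos from 52.98 and 50.7 to 74.7 and 76.4 CPM (0.54, SE 0.05, adjusted p = 1.49e-06). Dusp1, which inactivates p38 and JNK, was the leading MAP kinase phosphatase, with 33.9 and 34.5 CPM in controls and 61.4 and 61.3 CPM after AmTARS (0.82, SE 0.08, adjusted p = 2.19e-06). Dusp6, which acts on ERK, rose from 60.6 and 60.4 to 70.8 and 72.3 CPM (0.24, SE 0.05, adjusted p = 0.00155). Among myeloid lineage factors Cebpb rose from 153 and 158 to 258 and 236 CPM (0.66, SE 0.06, adjusted p = 3.26e-07; 0.40 after the correction). Ets2 went from 81.7 and 77.8 to 111 and 115 CPM (0.50, SE 0.07, adjusted p = 5.55e-05). Of the 37 myeloid lineage factors measured, as many fell as rose as deposited, 11 each, and 10 rose and 6 fell after the correction. For this list and the immediate-early list the background was 18.8% higher and 17.9% lower as deposited, and 10.8% and 7.6% after the correction.

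Receptors for metabolites, adenosine and formylated bacterial peptides held several clear gains. Of 28 measured 9 rose and 6 fell, and 10 and 6 after the correction; 8 or 9 rises were called with any 1 library left out. The shares over all genes were 18.8% higher and 17.9% lower as deposited, and 10.8% and 7.6% after the correction. Gpr84, a receptor of medium-chain fatty acids, rose from 9.05 and 9.55 to 19.3 and 18.9 CPM (0.97, SE 0.11, adjusted p = 5.73e-06). Fpr1 and Fpr2 recognise formylated peptides such as those of bacteria. Fpr1 went from 93.4 and 99.6 to 159 and 151 CPM (0.68, SE 0.08, adjusted p = 1.29e-05). Fpr2 went from 51.2 and 54.97 to 88.9 and 78.6 CPM (0.65, SE 0.08, adjusted p = 8.49e-06). In these receptors both AmTARS libraries stood above both controls, while 71.3% of all genes tested had no overlap between the groups in either direction. Adora2b, an adenosine receptor, rose from 6.08 and 7.398 to 12.5 and 12.1 CPM (0.79, SE 0.09, adjusted p = 5.58e-06). Hcar2, the receptor of niacin and of the ketone body hydroxybutyrate, went from 7.17 and 7.04 to 11.5 and 11.8 CPM (0.64, SE 0.12, adjusted p = 0.000558).

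Surface lectins and adhesion genes had single large rises. Clec4e, the gene of the mycobacterial glycolipid receptor Mincle, rose from 286 and 314 to 501 and 494 CPM (0.73, SE 0.08, adjusted p = 3.50e-06). Its partner Clec4d went from 938 and 1013 to 1335 and 1232 CPM (0.40, SE 0.06, adjusted p = 6.34e-05). The scavenger receptor gene Marco rose from 22.8 and 24.3 to 35.5 and 33.1 CPM (0.53, SE 0.09, adjusted p = 0.00014). Mertk, which serves the uptake of dying cells, fell from 67.1 and 62.3 to 44.5 and 48.2 CPM (-0.47, SE 0.08, adjusted p = 0.00029). The groups did not overlap for these 4 genes, nor for 71.3% of all genes tested. Of 23 lectins and scavenger receptors 8 rose and 5 fell, and 7 rose and 3 fell after the correction, with 5 rises as deposited called without AmTARS replicate 1 and 4 without control replicate 2. Of 27 co-stimulation and adhesion genes 7 rose and 7 fell, and 6 rose and 2 fell after the correction. For both lists the background was 18.8% higher and 17.9% lower as deposited, and 10.8% and 7.6% after the correction. Icam1, an adhesion molecule, rose from 93.3 and 88.1 to 121 and 127 CPM (0.44, SE 0.06, adjusted p = 1.98e-05). Cd40, a co-stimulatory receptor, went from 4.48 and 4.55 to 8.39 and 6.96 CPM (0.65, SE 0.10, adjusted p = 8.55e-05). Itgav, an integrin subunit, fell from 99.05 and 96.8 to 68.1 and 70.1 CPM (-0.50, SE 0.06, adjusted p = 1.42e-05).

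Among the MHC class II genes, the gene of their regulator fell. Ciita, the master activator of class II transcription, fell from 3.799 and 3.41 to 1.91 and 1.69 CPM (-0.72, SE 0.12, adjusted p = 0.00021; -0.58 after the correction). H2-Ab1 rose from 141 and 140.04 to 179 and 179 CPM (0.34, SE 0.05, adjusted p = 4.42e-05). Cd74 went from 414 and 413 to 499 and 515 CPM (0.29, SE 0.04, adjusted p = 6.08e-05). After the correction H2-Ab1 was at 0.11 (adjusted p = 0.0418) and Cd74 at 0.09 (adjusted p = 0.0744). Of 14 measured class II genes and regulators 8 rose and 1 fell as deposited, and 2 rose and 1 fell after the correction; without AmTARS replicate 1 the rises numbered 4 and without control replicate 2 they numbered 5. Among 15 genes used as markers of alternative activation 3 rose and 3 fell, near the background shares of 18.8% and 17.9%. After the correction 2 rose and 2 fell, against a background of 10.8% and 7.6%. As deposited, fewer rose without AmTARS replicate 3. Arg1, which splits arginine, had 27.2 and 27.3 CPM in controls and 32.9 and 35.3 CPM after AmTARS (0.31, SE 0.08, adjusted p = 0.00595). Its call was lost without AmTARS replicate 3 (adjusted p = 0.0581), and it was at 0.18 (adjusted p = 0.0817) after the correction. Mrc1, the mannose receptor, fell from 84.7 and 85.4 to 70.1 and 73.4 CPM (-0.24, SE 0.05, adjusted p = 0.00124; -0.07, adjusted p = 0.237 after the correction).

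Genes of cholesterol synthesis rose almost along the whole pathway. All 20 enzymes on the list were measured, 19 rose and none fell, with a median log2 difference of 0.417; 17 rose after the correction, and 16 to 18 rose with 1 library left out. Among the first steps, Hmgcs1, which makes HMG-CoA, went from 77.1 and 81.7 to 91.2 and 99.7 CPM (0.26, SE 0.05, adjusted p = 0.00108). Mvk, Pmvk and Mvd turn mevalonate into isopentenyl pyrophosphate, and of these Mvd rose from 35.3 and 33.8 to 51.9 and 53.2 CPM (0.59, SE 0.06, adjusted p = 5.53e-07). The largest rise of the pathway was in Fdps, which makes farnesyl pyrophosphate, from 52.2 and 56.5 to 95.7 and 94.5 CPM (0.80, SE 0.05, adjusted p = 2.43e-08). Fdft1, which commits farnesyl pyrophosphate to squalene, rose from 33.2 and 32.2 to 52.9 and 50.8 CPM (0.65, SE 0.06, adjusted p = 2.71e-07).

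The later, sterol-specific steps rose as well. Sqle (chromosome 15, 59315077 to 59331192, build mm10), the squalene epoxidase, rose from 43.1 and 44.1 to 66.7 and 68.2 CPM (0.62, SE 0.05, adjusted p = 2.23e-07) and was 0.61 (adjusted p = 7.44e-09) after the correction. Cyp51 and Msmo1 remove methyl groups from lanosterol. Cyp51 rose from 52.8 and 60.3 to 84.5 and 86.97 CPM (0.60, SE 0.06, adjusted p = 2.74e-06). Msmo1 went from 87.6 and 93.8 to 139.98 and 131 CPM (0.57, SE 0.05, adjusted p = 5.53e-07). The AmTARS libraries stood above both controls for 19 of the 20 enzymes; the libraries of the groups did not overlap, in either direction, in 71.3% of all genes tested. The exception was the terminal reductase Dhcr7, with 37.5 and 36.2 CPM in controls and 38.2 and 37.1 CPM after AmTARS (0.03, SE 0.06, adjusted p = 0.746). Tm7sf2 and Ebp rose by 0.30 and 0.22 and were not called after the correction, at 0.11 and 0.11; the calls of Tm7sf2, Ebp and Nsdhl were lost without AmTARS replicate 1 and without control replicate 2 (largest adjusted p of 0.325, 0.106 and 0.0606), and that of Idi1 without replicate 3 of either group (largest adjusted p = 0.115).

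Of 16 genes of sterol uptake and SREBP control 6 rose and 4 fell, and after the correction 6 rose and none fell; the falls numbered 2 without AmTARS replicate 1 and 1 without control replicate 2. Insig1, which retains SREBP in the endoplasmic reticulum and is itself a target of SREBP, rose from 63.3 and 65.2 to 89.9 and 88.4 CPM (0.47, SE 0.06, adjusted p = 1.45e-05). Srebf2, the gene of SREBP2, went from 135 and 132 to 162 and 164 CPM (0.29, SE 0.05, adjusted p = 0.000305). Scap (56.4 and 53.8 against 55.3 and 55.8 CPM), Insig2 and Scarb1 did not pass. On the side of export, Abcg1, a cholesterol efflux pump, fell from 115 and 108 to 79.3 and 84.9 CPM (-0.44, SE 0.06, adjusted p = 2.97e-05). Nr1h3, the gene of the oxysterol receptor LXR alpha, rose from 24.1 and 22.4 to 30.96 and 31.96 CPM (0.42, SE 0.06, adjusted p = 6.75e-05). Of 24 genes of fatty acid synthesis and desaturation 5 rose and 2 fell, shares near or below the background, and the rises numbered 2 or 3 with any 1 library left out. After the correction 7 rose and none fell, against a background of 10.8% and 7.6%, and 3 rose in both. Within it, Scd2, a desaturase, rose from 75.5 and 77.9 to 102 and 106 CPM (0.43, SE 0.05, adjusted p = 1.56e-05). Acsl1, which activates long-chain fatty acids, went from 155 and 157 to 221 and 237 CPM (0.55, SE 0.07, adjusted p = 2.23e-05).

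**Figure D5:**
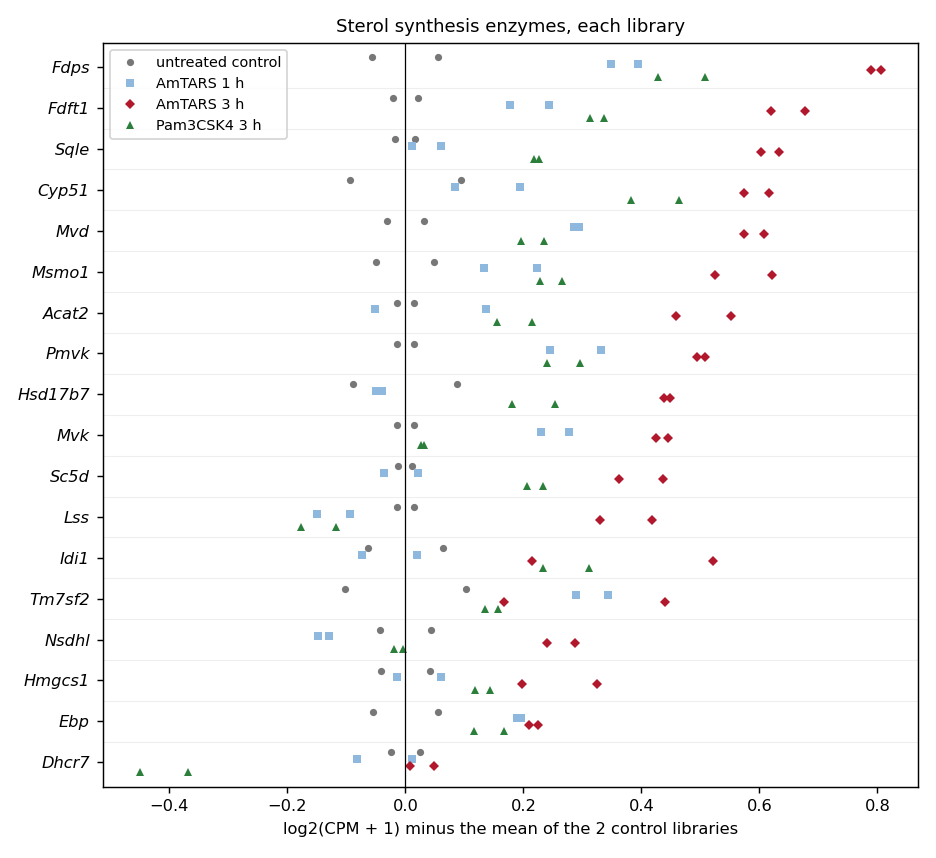
Level of 18 of the 20 sterol synthesis enzymes in each library, as log2(CPM + 1) minus the mean of the 2 control libraries (horizontal axis), for control, AmTARS 1 h, AmTARS 3 h and Pam3CSK4 3 h. The AmTARS 3 h libraries lie to the right of both controls for each gene but Dhcr7, and most also lie to the right of AmTARS 1 h and Pam3CSK4 3 h.

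Promoters of sterol enzymes are shown for 2 elements known from this pathway, the sterol regulatory element read by SREBP and the CCAAT box read by its partner NF-Y. Of the 20 enzymes 15 had a RefSeq promoter entry (GRCm38.p6, 250 bases before the start, both strands searched). CCAAT lay in 14 of the 15 (93.3%), against 3547 of 8808 promoters of tested genes (40.3%), 2 of 13 chemokine promoters (15.4%) and 5 of 13 promoters of the largest falls (38.5%). The sterol element form TCACNCCAC lay in 1 of the 15, that of Hmgcs1, against 109 of 8808 (1.24%). In Hmgcs1 (chr13:119690101-119690350, plus strand) the element begins 137 bases before the start, and 3 CCAAT boxes on the opposite strand begin at 237, 176 and 45. In Msmo1 (chr8:64733579-64733828, minus strand) 3 CCAAT boxes begin 160, 96 and 55 bases before the start, and in Mvd (chr8:122443423-122443672, minus strand) 2 begin at 60, on the opposite strand, and at 27. The capitals mark the sterol element and the CCAAT boxes.
Hmgcs1: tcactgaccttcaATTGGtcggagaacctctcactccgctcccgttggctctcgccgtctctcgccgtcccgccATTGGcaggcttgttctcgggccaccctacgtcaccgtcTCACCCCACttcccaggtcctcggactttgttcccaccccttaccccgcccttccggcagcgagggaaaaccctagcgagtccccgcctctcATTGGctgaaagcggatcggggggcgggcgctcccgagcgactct
Msmo1: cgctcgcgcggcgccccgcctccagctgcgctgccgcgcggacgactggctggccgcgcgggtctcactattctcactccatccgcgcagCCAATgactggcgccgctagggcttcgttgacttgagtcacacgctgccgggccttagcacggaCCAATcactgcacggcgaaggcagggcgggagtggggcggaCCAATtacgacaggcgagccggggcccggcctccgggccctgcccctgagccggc
Mvd: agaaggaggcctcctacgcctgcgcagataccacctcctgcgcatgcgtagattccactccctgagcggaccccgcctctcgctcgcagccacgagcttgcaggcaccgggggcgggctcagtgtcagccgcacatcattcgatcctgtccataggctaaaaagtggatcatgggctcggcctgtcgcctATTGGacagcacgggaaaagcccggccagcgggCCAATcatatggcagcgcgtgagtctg

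Among enzymes that make signalling metabolites and eicosanoids, the single genes Irg1 and Ptges rose. Irg1 (chromosome 14, 103046977 to 103056573, build mm10), the gene of aconitate decarboxylase that makes itaconate, rose from 179 and 179 to 309 and 332 CPM (0.84, SE 0.08, adjusted p = 5.53e-07). Of the 26 genes of the citric acid cycle and itaconate 5 rose and 3 fell, near or below the background shares of 18.8% and 17.9%. The 2 rises called both as deposited and as corrected were those of Irg1 and the citrate carrier gene Slc25a1. Ptges, the inducible prostaglandin E synthase, rose from 30.2 and 32.9 to 53.5 and 58.6 CPM (0.81, SE 0.10, adjusted p = 1.98e-05). Ptgs2, the cyclooxygenase that acts before it, was lower as deposited, at 44.8 and 47.1 CPM in controls and 37.2 and 40.8 CPM after AmTARS (-0.23, SE 0.08, adjusted p = 0.0305). It was at -0.10 (adjusted p = 0.425) after the correction, and the call was lost without AmTARS replicate 1 or either control (largest adjusted p = 0.257). Hpgd, which inactivates prostaglandins, fell from 12.5 and 13.4 to 8.84 and 9.396 CPM (-0.46, SE 0.09, adjusted p = 0.000983). Of the 17 prostaglandin and leukotriene genes measured, 4 rose and 5 fell as deposited, and 2 rose and 4 fell after the correction. The background shares were 18.8% and 17.9% as deposited, and 10.8% and 7.6% after the correction. Nos2, the inducible nitric oxide synthase, did not pass, with 16.6 and 17.2 CPM in controls and 18.04 and 19.1 CPM after AmTARS (0.13, SE 0.10, adjusted p = 0.32).

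Oxidant defence genes rose broadly by small amounts. Of 28 targets of the transcription factor NRF2 and related genes 22 rose and 1 fell, with a median difference of 0.256; after the correction 16 rose and 1 fell, and 18 to 20 rose with 1 library left out. Sod2, the mitochondrial superoxide dismutase and also an NF-kB target, rose from 167 and 175 to 313 and 303 CPM (0.84, SE 0.07, adjusted p = 1.92e-07) and by 1.04 after the correction. Hmox1, the haem oxygenase, went from 689.9 and 681 to 915 and 953 CPM (0.45, SE 0.06, adjusted p = 3.89e-05). Srxn1, the sulfiredoxin, went from 119 and 123 to 158 and 164 CPM (0.41, SE 0.07, adjusted p = 0.000223). Sqstm1, the autophagy adaptor p62, went from 658 and 659 to 862 and 869 CPM (0.39, SE 0.06, adjusted p = 0.000125). Classic NRF2 targets at lower levels did not pass, among them Nqo1 (5.03 and 4.91 against 5.15 and 5.76 CPM) and Gclc (28.3 and 30.2 against 31.1 and 31.6 CPM).

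The metallothioneins, small proteins that bind zinc and copper, rose together. Mt1 (chromosome 8, 94179082 to 94180327, build mm10) went from 86.9 and 94.4 to 175 and 156 CPM (0.86, SE 0.06, adjusted p = 4.09e-08). Its neighbour Mt2 went from 26.8 and 28.6 to 51.9 and 50.2 CPM (0.86, SE 0.06, adjusted p = 2.43e-08). Both are short, and after the correction they were 0.65 and 0.55, still called. Among 24 measured genes of metal handling 8 rose and 4 fell, and 7 rose and 1 fell after the correction, against a background of 10.8% and 7.6%; as deposited, 1 fall was called without AmTARS replicate 1 or control replicate 3 and 2 without control replicate 2. The iron importer Slc11a2 rose from 81.7 and 81.9 to 106 and 109.7 CPM (0.39, SE 0.05, adjusted p = 3.36e-05). The zinc importer Slc39a10 fell from 16.6 and 17.1 to 8.95 and 11.03 CPM (-0.71, SE 0.10, adjusted p = 4.47e-05).

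Glucose handling rose in selected genes. Of 28 genes of glycolysis and the HIF-1 response 12 rose and 1 fell as deposited, 12 rose and none fell as corrected, and 8 rose in both. Egln3, a prolyl hydroxylase that marks HIF for decay, rose from 17.2 and 15.8 to 23.6 and 28.2 CPM (0.61, SE 0.12, adjusted p = 0.000565). Slc16a3, the lactate exporter, went from 121 and 119 to 165 and 181 CPM (0.52, SE 0.07, adjusted p = 2.52e-05). Slc2a1, the glucose transporter GLUT1, went from 112 and 108 to 145 and 156 CPM (0.45, SE 0.07, adjusted p = 0.000113). Hif1a did not pass, at 356 and 352 CPM in controls and 302 and 348 CPM after AmTARS, with a wide gap between the AmTARS libraries; without AmTARS replicate 3 it was called lower (-0.13 with all libraries, -0.229 without it, adjusted p = 0.00927). Txnip, which restrains glucose uptake, fell from 463 and 452 to 369 and 361 CPM (-0.33, SE 0.04, adjusted p = 1.96e-05).

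Regulators of the actin cytoskeleton held 2 of the 8 largest rises. Marcksl1 (chromosome 4, 129513581 to 129515985, build mm10), whose product binds actin and membrane phospholipids, rose from 94.4 and 101 to 209.9 and 202 CPM (1.07, SE 0.09, adjusted p = 1.92e-07). Cdc42ep2, an effector of the GTPase Cdc42, went from 9.05 and 8.93 to 18.3 and 17.4 CPM (0.92, SE 0.08, adjusted p = 3.85e-07). Vasp, which promotes actin filament growth, rose from 237 and 236 to 394 and 389 CPM (0.73, SE 0.06, adjusted p = 1.92e-07). Coro1a went from 342 and 338 to 454 and 442 CPM (0.40, SE 0.05, adjusted p = 2.30e-05). In all, 23 of 50 cytoskeletal genes rose and 4 fell, or 18 and 3 after the correction; the rises numbered 15 without control replicate 2, and no fall was called without it or without AmTARS replicate 1. Other Cdc42 effectors, Cdc42ep1, Cdc42ep3 and Cdc42ep5, did not pass as deposited. For the cytoskeletal genes and for the Wnt genes that follow, the background was 18.8% higher and 17.9% lower as deposited. After the correction it was 10.8% and 7.6%. Wnt6, a secreted signal, rose from 5.34 and 5.53 to 12.2 and 12.02 CPM (1.02, SE 0.11, adjusted p = 3.01e-06), while of 24 Wnt pathway genes 3 rose and 8 fell, or 2 and 3 after the correction; 1 rise was called without AmTARS replicate 3 or control replicate 3, and 5 falls without AmTARS replicate 1 or control replicate 2.

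The largest falls were of genes with diverse roles. Zbed6, a transcription factor gene that lies within an intron of another gene and can share its reads, fell from 11.8 and 11.03 to 4.42 and 5.81 CPM (-1.03, SE 0.14, adjusted p = 3.32e-05), with a wide gap between the AmTARS libraries. Slc5a3 (chromosome 16, 92058322 to 92087473, build mm10), the sodium-coupled myo-inositol transporter, fell from 12.6 and 13.7 to 5.91 and 6.21 CPM (-1.003, SE 0.11, adjusted p = 2.74e-06; -0.70 after the correction). Its AmTARS libraries agreed closely. Xylt1, which starts glycosaminoglycan chains, fell from 16.7 and 13.6 to 6.93 and 7.58 CPM (-0.96, SE 0.13, adjusted p = 3.29e-05). Hipk2, a nuclear kinase, went from 32.5 and 28.1 to 16.9 and 17.1 CPM (-0.79, SE 0.09, adjusted p = 6.37e-06). Lyst, a regulator of lysosome size, fell from 95.9 and 87.3 to 52.3 and 55.9 CPM (-0.75, SE 0.10, adjusted p = 1.98e-05). The aminopeptidase gene Lnpep went from 44.4 and 41.7 to 23.3 and 25.3 CPM (-0.80, SE 0.09, adjusted p = 5.59e-06). The remaining 9 of the 15, namely Uprt, 9930111J21Rik1, Lmbrd2, Pdpr, Mgat5, Uhmk1, Zbtb38, Vps13c and Cbl, had differences between -0.99 for Uprt and -0.74 for Cbl on the log2 scale. After the correction 14 of the 15 falls were smaller and that of Uprt was -1.02; the value was -0.88 for Zbed6, -0.44 for Lyst and -0.48 for Vps13c.

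Among ubiquitin ligases more genes fell than rose. Of 27 measured, with a median length of 5420 nucleotides, 16 fell and 3 rose as deposited, with a median difference of -0.271. After the correction 8 fell and 2 rose and the median was -0.085, and 1 fell in the corrected values with a replicate block; 1 rise was called without AmTARS replicate 1 or control replicate 2. Cbl, which marks growth factor receptors for decay, fell from 28.9 and 24.9 to 14.7 and 16.6 CPM (-0.74, SE 0.13, adjusted p = 0.000326). Birc6 went from 56.8 and 53.1 to 38.2 and 39.1 CPM (-0.50, SE 0.07, adjusted p = 3.89e-05; -0.19 after the correction). Herc1 went from 57.1 and 57.3 to 39.2 and 39.9 CPM (-0.52, SE 0.08, adjusted p = 8.41e-05; -0.21 after the correction). For the ligases and for the genes named Zfp, the background was 18.8% higher and 17.9% lower as deposited, and 10.8% and 7.6% after the correction. Genes named Zfp, mostly zinc finger transcription factors, had 14 of 269 higher and 79 lower as deposited. The counts were 7 and 30 after the correction, and 4 and 7 with the correction and a replicate block for the genes named Zfp. Their falls numbered 29 without AmTARS replicate 1, 44 without AmTARS replicate 3, 33 without control replicate 2 and 46 without control replicate 3, and their rises between 4 and 9.

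Cytosolic ribosomal proteins and respiratory chain subunits, whose genes are short, were mostly higher as deposited, and fewer were after the correction. Of 75 cytosolic ribosomal protein genes 72 rose and none fell, with a median length of 937 nucleotides and a median difference of 0.312; after the correction 33 rose and the median was 0.092. Of 77 mitochondrial ribosomal protein genes 42 rose and none fell, and 13 rose and 2 fell after the correction; the rises as deposited numbered 15 without AmTARS replicate 1 and 23 without control replicate 2. Of 70 oxidative phosphorylation subunits 64 rose and none fell, and 12 rose after the correction, with medians of 0.30 and 0.061; without AmTARS replicate 1 the rises as deposited numbered 39 and without control replicate 2 they numbered 40. Ndufa2, a complex I subunit, had 59.9 and 63.8 CPM in controls and 95.2 and 83.1 CPM after AmTARS (0.52, SE 0.06, adjusted p = 1.14e-05; 0.25 after the correction). Rpl41, a protein of the large ribosomal subunit, had 354 and 371 CPM in controls and 559 and 478 CPM after AmTARS (0.51, SE 0.06, adjusted p = 9.06e-06; 0.21 after the correction). Proteasome subunits rose in 30 of 38 cases and in 19 after the correction, and in 19 as deposited without AmTARS replicate 1.

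Few of the macrophages' own aminoacyl-tRNA synthetases passed the test. Of 41 measured 3 rose and 3 fell, below the background shares, and 1 and 1 after the correction; without control replicate 2 none rose and 1 fell, and without AmTARS replicate 1 it was 1 and 2. Tars, the host gene of threonyl-tRNA synthetase, had 46.2 and 44.8 CPM in controls and 46.9 and 46.5 CPM after AmTARS (0.04, SE 0.06, adjusted p = 0.636). Hars and Iars were among the called genes, at 0.19 and -0.29. Hars was not called after the correction (0.11, adjusted p = 0.0776) or without AmTARS replicate 1 or control replicate 2 (largest adjusted p = 0.0728).

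Against AmTARS for 1 h, the 3 h libraries had 206 genes higher (1.81%) and 65 lower (0.57%), 271 in all (2.38%), and none of these differences reached 2-fold. The count is sensitive to single libraries: it was 95 without AmTARS 1 h replicate 2, 158 without AmTARS 1 h replicate 3, 147 without AmTARS 3 h replicate 1 and 89 without AmTARS 3 h replicate 3. The largest gain from 1 h to 3 h was that of Irg1. It had 182 and 176 CPM at 1 h and 309 and 332 at 3 h, a log2 difference of 0.84 (SE 0.08, adjusted p = 2.01e-06). Wnt6 had 6.402 and 6.74 CPM at 1 h and 12.2 and 12.02 at 3 h (0.79, SE 0.11, adjusted p = 0.000179), and Acsl1 had 131 and 135 CPM at 1 h and 221 and 237 at 3 h (0.78, SE 0.07, adjusted p = 2.01e-06). Fpr1, Irak3 and Gpr84 were also higher at 3 h, by 0.75, 0.70 and 0.69. At 1 h Acsl1 and Irak3 (67.7 and 65.2 CPM) stood below both controls.

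Of the 20 sterol enzymes 15 were higher at 3 h than at 1 h and none lower (16 after the correction, 11 to 13 with 1 library left out), with Sqle at 45.5 and 43.95 CPM at 1 h and 66.7 and 68.2 at 3 h (0.58, SE 0.05, adjusted p = 1.68e-06). Most cytokine and chemokine genes did not pass between 1 h and 3 h: none of 22 cytokines was higher and 1 lower, and 2 of 19 chemokines were higher and none lower, against a background of 1.81% higher and 0.57% lower. With any 1 library left out no chemokine was called. Tnf was lower at 3 h, with 63.99 and 71.7 CPM at 1 h (-0.46, SE 0.07, adjusted p = 0.00069), as was Nfkbia at 215 and 212 CPM (-0.23, SE 0.05, adjusted p = 0.0247). Nfkbia was the 1 lower gene of the 11 NF-kB and IkB genes, while 4 were higher at 3 h (4 higher and 2 lower after the correction). The 4 were Nfkbie (0.52), Nfkb2 (0.48), Relb (0.35) and Nfkb1 (0.28, adjusted p = 0.0258). Cxcl10 and Cxcl3 were higher at 3 h, by 0.60 and 0.45; these and the Nfkbia call were lost without any 1 of the 4 libraries (largest adjusted p of 0.291, 0.216 and 0.397 for Cxcl10, Cxcl3 and Nfkbia). Cxcl2 had 43.7 and 49.6 CPM at 1 h and did not differ beyond its spread (0.01, SE 0.11, adjusted p = 0.985). Txnip was higher at 3 h, at 229.8 and 232 CPM at 1 h and 369 and 361 at 3 h (0.66, SE 0.04, adjusted p = 1.31e-08), between the 1 h level and the controls. Among the genes lower at 3 h, Slc5a3 had 10.1 and 9.81 CPM at 1 h (-0.64, SE 0.11, adjusted p = 0.00119). Hpgd had 13.3 and 13.7 CPM (-0.52, SE 0.09, adjusted p = 0.00312) and the purine receptor gene P2ry1 8.03 and 8.01 CPM (-0.52, SE 0.11, adjusted p = 0.00996), and Mir703, Cnn1 and Zfyve28 were lower by -0.60, -0.52 and -0.48 on the same scale. Of these drops, those of Slc5a3 and Hpgd were called with any 1 library left out. The call of P2ry1 was lost without either AmTARS 1 h library or AmTARS 3 h replicate 1, that of Mir703 without AmTARS 1 h replicate 2 or AmTARS 3 h replicate 1, that of Cnn1 without either AmTARS 1 h library or AmTARS 3 h replicate 3, and that of Zfyve28 without any 1 library (largest adjusted p of 0.192, 0.254, 0.176 and 0.136).

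Against Pam3CSK4 for 3 h, at doses that cannot be matched, AmTARS had 917 genes higher (8.04%) and 1036 lower (9.08%), 17.1% in all. Differences of 2-fold or more were 3 higher and 79 lower under AmTARS. The count was 1193 without AmTARS replicate 1 and 1141 without Pam3CSK4 replicate 3. Of the 6 largest differences on the lower side, 5 were in chemokines and cytokines that AmTARS raised against control. Cxcl1 had 22.5 and 24.1 CPM under AmTARS and 149 and 219 under Pam3CSK4 (-2.90, SE 0.11, adjusted p = 3.22e-13). Il1b had 45.2 and 45.1 CPM under AmTARS and 206 and 332 under Pam3CSK4 (-2.51, SE 0.13, adjusted p = 1.29e-11). Tnf had 49.0 and 49.1 CPM under AmTARS and 186 and 228 under Pam3CSK4 (-2.05, SE 0.07, adjusted p = 1.68e-13). Cxcl2 and Cxcl3 differed by -2.68 and -2.57. Nos2 had 18.04 and 19.1 CPM under AmTARS and 73.2 and 99.1 under Pam3CSK4 (-2.14, SE 0.10, adjusted p = 4.37e-12), and both Pam3CSK4 libraries lay above the AmTARS libraries.

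Every one of the 11 NF-kB and IkB genes was lower under AmTARS than under Pam3CSK4, as were 16 of 22 cytokines and 14 of 19 chemokines, against a background of 9.08%. Tlr2 had 364 and 365 CPM under AmTARS and 759.8 and 896 under Pam3CSK4 (-1.18, SE 0.06, adjusted p = 7.65e-12). The sterol enzymes had the other direction, with 13 of 20 higher under AmTARS and none lower, against a background of 8.04% (16 after the correction, 9 to 12 with 1 library left out). Lss, the lanosterol synthase, had 34.8 and 37.1 CPM under AmTARS and 25.3 and 24.3 under Pam3CSK4 (0.52, SE 0.06, adjusted p = 3.10e-06). Sqle had 66.7 and 68.2 CPM under AmTARS and 51.2 and 50.9 under Pam3CSK4 (0.40, SE 0.05, adjusted p = 1.13e-05).

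The 5 genes with the largest excess under AmTARS were lower in the Pam3CSK4 libraries than in both the AmTARS and the control libraries. Rgs2, a regulator of G protein signalling, had 122 and 114 CPM under AmTARS, 57.7 and 48.98 under Pam3CSK4 and 113 and 120.3 in controls (1.14, SE 0.07, adjusted p = 1.04e-10 for the ligands). Arrdc3, an arrestin-domain gene, had 35.7 and 35.2 CPM under AmTARS, 15.3 and 16.6 under Pam3CSK4 and 37.3 and 36.2 in controls (1.11, SE 0.07, adjusted p = 1.68e-10), and the ubiquitin ligase gene Rnf144b 23.97 and 23.1 CPM under AmTARS, 11.6 and 9.32 under Pam3CSK4 and 33.1 and 31.4 in controls (1.10, SE 0.08, adjusted p = 2.67e-09). Engase and Mtus1 followed at 0.89 and 0.86. Scd2 stood above control under AmTARS and below it under Pam3CSK4, at 102 and 106 CPM under AmTARS and 60.4 and 54.4 under Pam3CSK4 against 75.5 and 77.9 in controls (0.85, SE 0.05, adjusted p = 4.17e-10). The metallothioneins were higher under AmTARS too, Mt1 by 0.40 (SE 0.06, adjusted p = 8.74e-05) and Mt2 by 0.36 (SE 0.06, adjusted p = 0.000137).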

How the data were processed

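The deposited table holds log2 expression values of RNA-seq libraries that the authors computed before deposit; per the submitters' processing notes, STAR 2.5.1 aligned the reads, R 3.3.0 was used, and the genome build was mm10. How reads were counted and scaled, and with which annotation, is not given in the sources used here. Low values of the deposited table are whole multiples of 1 read within 0.1 read for 100% of values, so read counts were recovered for depth and for alternatives only. Values were turned back to CPM, filtered at a mean of 1 CPM over the 10 libraries and tested as log2(CPM + 1), a scale that understates changes of low genes, with limma 3.58.1 (R 4.3.3; intensity trend, Benjamini-Hochberg adjustment) fitted on all 10 libraries, with 5 residual and 14.72 prior degrees of freedom. SE is the moderated standard error. The correction took, in each library, a spline with 5 degrees of freedom on transcript length and on GC content (GENCODE M21, 11366 genes matched) out of the values; it was tested on simulated data. In the simulation of AmTARS 3 h against control over 11407 genes, 50% of 1.25-fold, 94% of 1.5-fold and 98% of 2-fold changes were recovered. Of its 182 calls 11 were false. A simulated length trend gave 5145 false calls, and 9 among 11366 genes after the correction. That trend was linear in log2 length and equal in both treated libraries, so the spline was bound to remove it. Length trends that differ between replicates, as in these libraries (rho 0.355 for AmTARS 3 h and -0.227 for the controls), were not simulated.

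Genes named are the 15 largest rises and 15 largest falls against control called both as deposited and as corrected, the 6 each way for the other comparisons, up to 5 changed and 3 unchanged-by-test members per list, all members of lists of up to 20, and a set of receptors, cytokines and marker genes. Some members counted in the lists are not reported here by name. Members, lists and motifs were chosen with earlier results of these data known. The labels do not say that equal replicate numbers mark shared material, and they were not used as pairs.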

Additional observations from a re-analysis of the deposited data

Results flagged for a closer look

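The effect of AmTARS differed between its time points in 271 genes and from that of Pam3CSK4 at 3 h in 1953 genes, each by a direct limma contrast of the groups in the same fit; the AmTARS 3 h libraries enter both contrasts. From 1 h to 3 h the largest gains on the log2 scale were 0.84 for Irg1, 0.79 for Wnt6, 0.78 for Acsl1, 0.75 for Fpr1, 0.70 for Irak3 and 0.69 for Gpr84. The largest drops were -0.64 for Slc5a3, -0.60 for Mir703, -0.52 for Hpgd, Cnn1 and P2ry1 each, and -0.48 for Zfyve28. Between the ligands at 3 h, values were higher under AmTARS by 1.14 for Rgs2, 1.11 for Arrdc3, 1.10 for Rnf144b, 0.89 for Engase, 0.86 for Mtus1 and 0.85 for Scd2. They were lower under AmTARS by -2.90 for Cxcl1, -2.68 for Cxcl2, -2.57 for Cxcl3, -2.51 for Il1b, -2.14 for Nos2 and -2.05 for Tnf. The doses of the ligands cannot be matched, so these differences belong to the doses used.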

How the results depend on the processing

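Against control, 4186 genes were called and 51.3% of them were higher. The count was 2096 after the length and GC correction, 2017 with a replicate block, 860 with the block and the correction together, 1997 to 3337 with 1 library left out, and, in the corrected values, 948 and 1379 without AmTARS 3 h replicates 1 and 3 and 879 and 1330 without control replicates 2 and 3, alternatives added after seeing the data. Tm7sf2 was at -0.002 in the corrected values without AmTARS 3 h replicate 1, against 0.30 as deposited. The count of calls lay between 3520 and 4821 under the other alternatives (pseudocounts, filters, quantile and median scaling, no intensity trend, only the 4 libraries, robust shrinkage). Plain read totals called 4213 genes with 31.3% higher and voom on recovered reads 4307 with 30.5% higher. The median log2 difference over all genes was -0.06 and -0.067 in these settings, against 0.001 as deposited. Total deposited CPM per library came to 959639 and 960837 for the controls, but to 1012831 and 1000398 for AmTARS 3 h. Scaling by plain read totals makes such totals equal. Whether this step accounts for the lower share of rises was not tested. Against AmTARS 1 h the 271 calls became 473 after the correction, 63 without an intensity trend, 492 in a fit of only the 4 libraries and 89 to 158 with 1 library left out. Against Pam3CSK4 3 h the 1953 calls ranged from 1141 to 2103 with 1 library left out, and quantile scaling moved the share higher from 47.0% to 54.4%. Correlations of deviations between libraries with equal replicate numbers ran from -0.206 to 0.204, and AmTARS 3 h and control share only the number 3 (-0.174). With 2 libraries per group the deviations within a group are equal and opposite, so these values cannot decide whether equal numbers pair the samples. The replicate block gave 210 calls against AmTARS 1 h and 1793 against Pam3CSK4 3 h.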
